A study of Mus musculus with 11 samples.

Results

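ATP-binding cassette (ABC) transporters and organic anion transporting polypeptides (the Slco carriers) are membrane proteins that move bile acids, drugs, hormones, sterols and phospholipids. The families were taken as every gene with a probe set of a single symbol that begins with Abc plus a subfamily letter and a number, or with Slco plus its family code, and the probe set with the highest mean over all arrays stood for a gene. This gave 63 genes, 48 ABC genes and 15 Slco genes, of 19938 genes with such a probe set among 35556 probe sets. Only Abcb5 had more than 1 probe set to choose from, and genes with no single-symbol probe set were not analysed here.

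In the hepatocyte, Slco carriers of the sinusoidal membrane take bile acids, steroid conjugates and drugs up from portal blood. ABC pumps of the canalicular membrane drive bile salts, phospholipid, sterols and conjugates into bile against a gradient. ABCC pumps of the sinusoidal side return conjugates and bile acids to blood, and in other cell types ABC proteins export cholesterol, carry peptides and lipids into organelles or form channel subunits.

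Whole-liver RNA was measured on Affymetrix MoGene 1.0 ST arrays from male mice of the C57/BL6 strain, aged 8 to 9 weeks and fed standard chow. There were 3 Nemo/TNFR1 dKO, 2 Nemo/TRAIL dKO, 3 Nemo KO and 3 WT livers. Nemo is the regulatory subunit of the kinase complex that activates NF-κB, TRAIL is a death ligand and TNFR1 is a receptor for TNF. Nemo KO mice (NemoΔhepa) carry a hepatocyte deletion of a loxP-flanked Nemo gene. The Nemo/TRAIL dKO and Nemo/TNFR1 dKO mice carry the same deletion together with constitutive TRAIL-/- or TNFR1-/- alleles, so that all 3 groups lack hepatocyte Nemo and other liver cells keep it. The sources used here do not give the promoter that drove the recombinase. There was no liver with a TRAIL or TNFR1 deletion alone.

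Values are log2 signals, and a difference of 1 is a 2-fold change. A difference was called where limma, fitted across all probe sets and all 11 arrays, gave a Benjamini-Hochberg adjusted p below 0.05, and each comparison with WT used the same 3 WT arrays. Signals are compared between livers for 1 gene, never between genes. In whole liver, fewer cells of a type and less RNA per cell cannot be told apart. The array numbers follow genotype, so array order and genotype cannot be told apart either, and a code of unknown meaning in the array names is the same for Nemo KO and WT but another one for either double knockout. Each array is called a liver here. Nothing in the sources used here says that replicates were separate animals, so p-values measure the spread between these samples only.

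The Ikbkg probe set (the Nemo gene) had mean log2 signals of 8.21 ± 0.10 in Nemo/TNFR1 dKO, 8.25 ± 0.05 in Nemo/TRAIL dKO, 8.42 ± 0.12 in Nemo KO and 8.66 ± 0.07 in WT (SD), called lower in both double knockouts and not in Nemo KO (limma adjusted p 0.106). The Tnfrsf1a probe set was not called lower in the livers labelled Nemo/TNFR1 dKO, with a difference from WT of 0.07 ± 0.09 (SE, limma adjusted p 0.67), while it rose by 0.43 ± 0.10 in Nemo/TRAIL dKO (0.0314) and 0.35 ± 0.09 in Nemo KO (0.0401). In Nemo/TNFR1 dKO it differed by -0.35 ± 0.10 from Nemo/TRAIL dKO, without overlap (unadjusted limma p 0.00595, adjusted p 0.793), and by -0.27 ± 0.09 from Nemo KO, with overlap (unadjusted p 0.0128, adjusted p 0.586). The Tnfsf10 probe set (the TRAIL gene) had a difference of -0.65 ± 0.19 in Nemo/TRAIL dKO, adjusted p 0.0749 by limma. The sources used here do not give where these probes lie relative to the deleted exons, so the genotype labels were not checked by them. The mean of 6 hepatocyte markers, albumin among them, lay within -0.08 and 0.04 of the WT mean on every array. Of the 6, 1 was called lower in Nemo/TNFR1 dKO (limma adjusted p 0.0281), 0 were called in Nemo/TRAIL dKO and 0 in Nemo KO against WT. WT replicate 3 stood apart in 8 pancreatic acinar markers, whose mean was 3.73 above the WT mean, against -2.21 to -1.80 on the other arrays. Without that array, 18 of the 63 genes were called in Nemo/TNFR1 dKO against WT, 17 in Nemo/TRAIL dKO and 19 in Nemo KO.

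Of the 63 genes, 18 were called in Nemo KO against WT, 10 higher and 8 lower, which is 28.6% of the families beside 9.29% of all probe sets (6.08% higher and 3.21% lower) and 12.6% of all genes with 1 probe set each. In Nemo/TRAIL dKO against WT 17 genes were called, 10 higher and 7 lower, or 27% beside 7.55% of all probe sets (4.91% higher and 2.64% lower) and 10.2% of genes. In Nemo/TNFR1 dKO against WT 18 genes were called, 11 higher and 7 lower, or 28.6% beside 9.18% of all probe sets (5.83% higher and 3.35% lower) and 12.1% of genes. The median absolute log2 difference over the families was 0.18 in Nemo/TNFR1 dKO, beside 0.13 over all probe sets, 0.19 in Nemo/TRAIL dKO, beside 0.13, and 0.26 in Nemo KO, beside 0.14. The median signed differences were -0.03, -0.07 and -0.07 in that order, beside -0.04, -0.05 and -0.05 over all probe sets.

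Across the 3 comparisons with WT, 8 genes were called higher in all 3, and they were Abcb1a, Abcb4, Abcc1, Abcc5, Abcc9, Abcg1, Abcg3 and Slco3a1. The 6 genes called lower in all 3 were Slco1a1, Slco1b2, Slco2a1, Abca8a, Abcb10 and Abcg8. The share of all probe sets called in all 3 was not counted. Because the 3 comparisons share their WT arrays, a gene called in 1 is more likely to be called in the others. A further 9 genes were called in 1 or 2 of the comparisons, and 40 were called in none. For 12 genes all 8 Nemo-deficient livers lay above all 3 WT livers, and for another 12 all 8 lay below, or 19% of the families each way. Over all probe sets these shares were 7.79% above and 7.14% below.

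**Figure D1:**
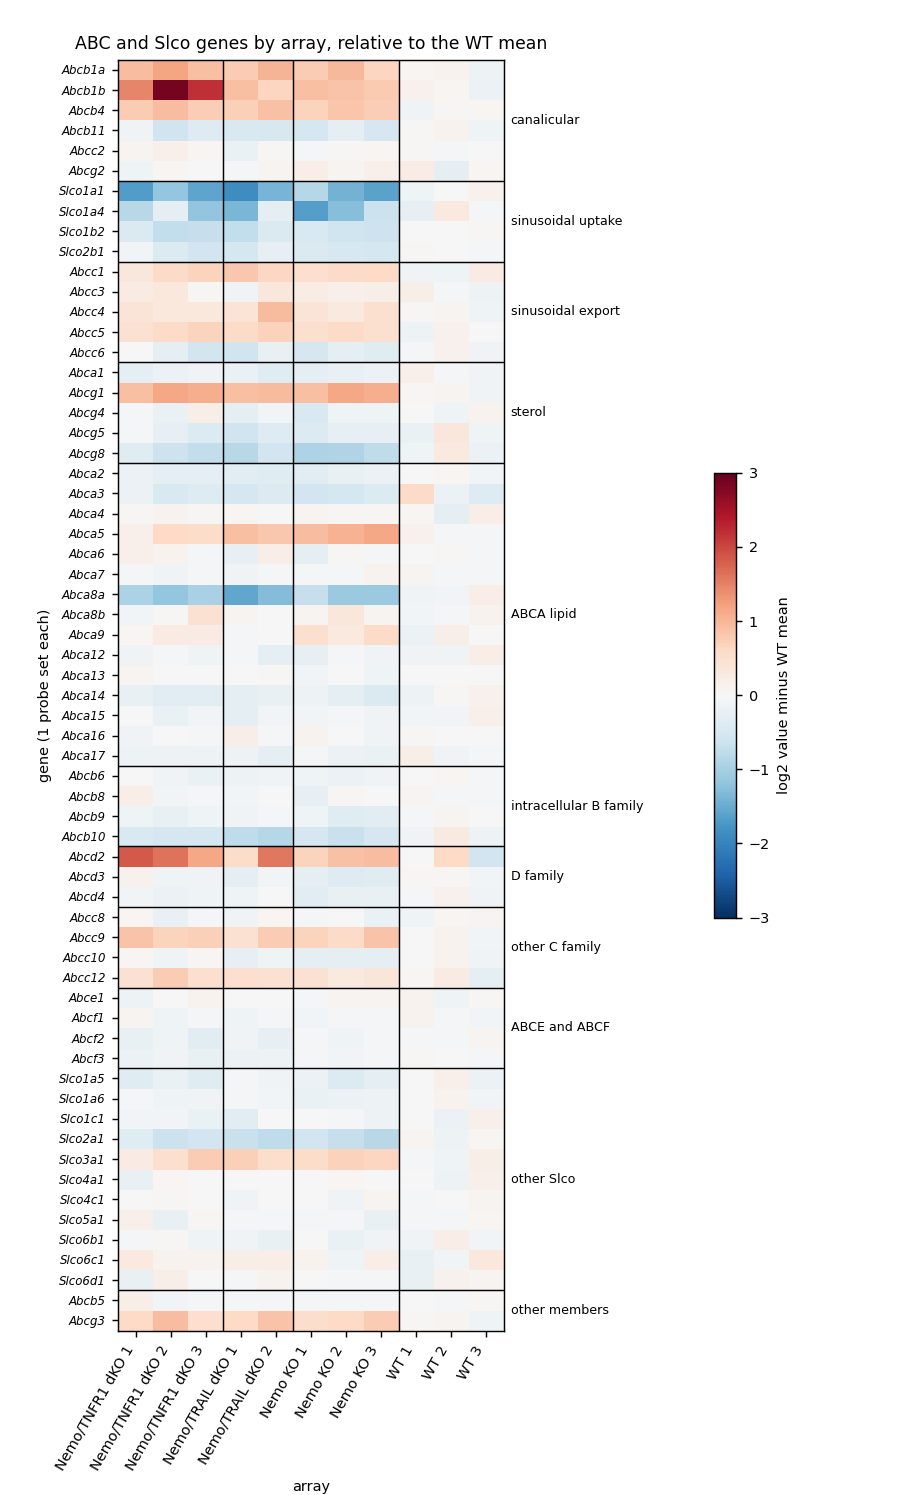
Log2 signal of each of the 63 genes on each of the 11 arrays, as the difference from that gene's WT mean, with arrays in columns by genotype and genes in rows by role. Colour stands for the log2 difference, cut at plus and minus 3. The sinusoidal uptake carriers lie below WT on average in all Nemo-deficient groups, Abcb1a and Abcb4 lie above it, and Abcb1b is highest in Nemo/TNFR1 dKO.

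Among the uptake carriers of the sinusoidal membrane every call was a fall. Of 4 carriers, 2 fell in Nemo/TNFR1 dKO, 2 fell in Nemo/TRAIL dKO and 3 fell in Nemo KO, and none rose. These are 50%, 50% and 75% of a short list, beside 12.1%, 10.2% and 12.6% of all genes with 1 probe set each. Slco1a1 (Oatp1a1 in mouse) and Slco1b2 (Oatp1b2) carry bile acids and organic anions into hepatocytes and fell in all 3. The 300 bases around their starts, from RefSeq on GRCm38.p6, are shown because both genes fell together and stand near each other. The window of Slco1a1 is chr6:141946913-141947212, minus strand, and that of Slco1b2 is chr6:141629268-141629567, plus strand, each printed 5′ to 3′ along its gene. Capitals mark matches, on either strand, to 3 motifs found there, the nuclear receptor half-site AGGTCA, the HNF1 half-site GTTAAT and the STAT motif TTCNNNGAA.
Slco1a1: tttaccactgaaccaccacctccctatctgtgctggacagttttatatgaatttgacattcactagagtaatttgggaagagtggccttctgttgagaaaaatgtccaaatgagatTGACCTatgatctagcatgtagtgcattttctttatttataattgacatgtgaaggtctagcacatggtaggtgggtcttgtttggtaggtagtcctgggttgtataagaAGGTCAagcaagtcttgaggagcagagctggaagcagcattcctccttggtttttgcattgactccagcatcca
Slco1b2: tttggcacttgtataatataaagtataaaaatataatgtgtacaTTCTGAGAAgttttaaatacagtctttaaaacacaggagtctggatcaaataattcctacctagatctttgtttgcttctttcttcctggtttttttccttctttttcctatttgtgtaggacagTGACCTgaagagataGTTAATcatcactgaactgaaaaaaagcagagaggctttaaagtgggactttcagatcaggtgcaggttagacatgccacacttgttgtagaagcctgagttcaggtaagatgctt
Slco1a1 held 2 matches to the nuclear receptor half-site, and Slco1b2 held 1 match to each of the 3 motifs, none of them overlapping. Of 32851 windows in the table, 16.3% held the nuclear receptor half-site, 7.1% the HNF1 half-site and 8.3% the STAT motif. A match is a run of letters, and binding was not measured.

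Slco1a1 had log2 signals of 10.02, 10.53 and 10.13 in Nemo/TNFR1 dKO livers, 9.83 and 10.30 in Nemo/TRAIL dKO livers, 10.84, 10.28 and 10.10 in Nemo KO livers, and 11.58, 11.70 and 11.82 in WT livers. All 8 Nemo-deficient livers were below the lowest WT liver. The difference from WT was -1.48 ± 0.21 in Nemo/TNFR1 dKO (adjusted p 0.00266), -1.63 ± 0.23 in Nemo/TRAIL dKO (0.00369) and -1.29 ± 0.21 in Nemo KO (0.00472; limma, SE), which leaves 0.359, 0.322 and 0.408 of the WT signal.

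Slco1b2 had log2 signals of 10.90, 10.59 and 10.64 in Nemo/TNFR1 dKO livers, 10.59 and 10.89 in Nemo/TRAIL dKO livers, 10.87, 10.73 and 10.71 in Nemo KO livers, and 11.31, 11.31 and 11.37 in WT livers. The WT livers lay within 0.1 of each other and above all others. The difference was -0.62 ± 0.10 in Nemo/TNFR1 dKO (limma adjusted p 0.00536), -0.59 ± 0.11 in Nemo/TRAIL dKO (0.014) and -0.56 ± 0.10 in Nemo KO (0.00875). The call in Nemo/TRAIL dKO was lost without its replicate 1, where the limma adjusted p was 0.133.

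Slco1a4 (Oatp1a4), which carries organic anions and cardiac glycosides, had log2 signals of 9.02, 9.57 and 8.67 in Nemo/TNFR1 dKO livers, 8.48 and 9.58 in Nemo/TRAIL dKO livers, 8.20, 8.58 and 9.20 in Nemo KO livers, and 9.59, 10.14 and 9.80 in WT livers. No group overlapped WT, yet livers of the same genotype lay far apart, and with all arrays the gene passed in no comparison. Its differences from WT were -0.76 ± 0.35, -0.81 ± 0.39 and -1.19 ± 0.35 in Nemo/TNFR1 dKO, Nemo/TRAIL dKO and Nemo KO, with limma adjusted p of 0.227, 0.268 and 0.0635. In Nemo KO the call depends on the setting, since Slco1a4 passed there with a signal filter at the median (0.0339) and with 1 of the Nemo/TRAIL dKO arrays left out, whichever it was (0.0429). Slco2b1, a carrier of steroid sulfates, averaged 9.66 ± 0.25, 9.64 ± 0.19 and 9.55 ± 0.05 in the same order, and 10.02 ± 0.04 in WT (SD). Its fall of -0.48 ± 0.12 in Nemo KO passed (limma adjusted p 0.0363), while the differences of -0.36 ± 0.12 in Nemo/TNFR1 dKO (0.0972) and -0.39 ± 0.13 in Nemo/TRAIL dKO (0.123) did not. Without Nemo/TNFR1 dKO replicate 1 both passed, with limma adjusted p of 0.0124 (a difference of -0.50) and 0.0395. The Slco2b1 call was kept in 4 of 11 fits with an array left out. It was lost without any 1 of the Nemo KO or WT arrays or without Nemo/TNFR1 dKO replicate 2, with adjusted p up to 0.116.

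The canalicular pumps did not move as 1 group. Of 6 pumps, 3 rose in Nemo/TNFR1 dKO, 2 in Nemo/TRAIL dKO and 2 in Nemo KO, and none was called lower. These are 50%, 33.3% and 33.3% of a short list, beside 12.1%, 10.2% and 12.6% of all genes with 1 probe set each. The called pumps were the neighbours Abcb1a, Abcb1b and Abcb4, while Abcb11, Abcc2 and Abcg2 passed in none of the comparisons with all arrays. Abcb1a and Abcb1b encode the mouse P-glycoproteins, which expel lipophilic drugs, and Abcb4 (Mdr2) moves phosphatidylcholine to the outer leaflet for secretion into bile. In the RefSeq gene order they lie side by side on chromosome 5 with no coding gene between them. Their windows of the same kind are shown because the neighbours rose together in part: chr5:8566841-8567140 for Abcb1a, chr5:8797897-8798196 for Abcb1b and chr5:8893471-8893770 for Abcb4, all on the plus strand of GRCm38.p6, with capitals for the NF-Y motif CCAAT on either strand.
Abcb1a: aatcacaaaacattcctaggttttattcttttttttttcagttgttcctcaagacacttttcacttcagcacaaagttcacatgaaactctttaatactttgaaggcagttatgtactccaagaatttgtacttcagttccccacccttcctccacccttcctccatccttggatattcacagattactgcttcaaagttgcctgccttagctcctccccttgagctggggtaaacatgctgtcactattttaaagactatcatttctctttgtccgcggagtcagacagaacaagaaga
Abcb1b: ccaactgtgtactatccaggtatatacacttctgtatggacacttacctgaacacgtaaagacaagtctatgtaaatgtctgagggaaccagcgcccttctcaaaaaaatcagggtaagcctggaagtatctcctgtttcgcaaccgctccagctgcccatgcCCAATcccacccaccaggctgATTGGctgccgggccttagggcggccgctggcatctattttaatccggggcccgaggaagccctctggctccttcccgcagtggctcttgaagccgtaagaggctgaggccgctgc
Abcb4: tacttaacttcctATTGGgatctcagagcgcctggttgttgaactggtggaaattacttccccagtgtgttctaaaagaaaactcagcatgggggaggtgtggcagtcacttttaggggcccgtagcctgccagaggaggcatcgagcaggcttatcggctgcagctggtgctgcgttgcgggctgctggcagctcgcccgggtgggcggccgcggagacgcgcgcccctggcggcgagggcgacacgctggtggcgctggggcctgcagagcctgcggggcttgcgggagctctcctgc
Abcb1b held 2 matches to CCAAT and Abcb4 held 1, beside 37.4% of all windows with at least 1 match. The Abcb1a window held no match to any of these motifs. The AP-1 motif TGANTCA, in 7.81% of all windows, and an NF-κB consensus, in 1.47%, were also searched and had no match in the windows printed here.

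Abcb4 had log2 signals of 11.60, 11.76 and 11.56 in Nemo/TNFR1 dKO livers, 11.55 and 11.71 in Nemo/TRAIL dKO livers, 11.51, 11.66 and 11.57 in Nemo KO livers, and 10.74, 10.87 and 10.90 in WT livers. The lowest Nemo-deficient liver lay well above the highest WT liver. Abcb4 rose by 0.81 ± 0.08 in Nemo/TNFR1 dKO (limma adjusted p 0.000672), 0.79 ± 0.09 in Nemo/TRAIL dKO (0.00147) and 0.75 ± 0.08 in Nemo KO (0.000884).

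Abcb1a had log2 signals of 7.14, 7.40 and 7.12 in Nemo/TNFR1 dKO livers, 6.97 and 7.23 in Nemo/TRAIL dKO livers, 6.97, 7.18 and 6.86 in Nemo KO livers, and 6.28, 6.32 and 6.05 in WT livers. The groups without Nemo overlapped each other and not WT. Abcb1a rose by 1.0 ± 0.12 in Nemo/TNFR1 dKO (limma adjusted p 0.00136), 0.89 ± 0.14 in Nemo/TRAIL dKO (0.00505) and 0.79 ± 0.12 in Nemo KO (0.00394).

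Abcb1b had log2 signals of 6.60, 8.02 and 7.33 in Nemo/TNFR1 dKO livers, 6.04 and 5.78 in Nemo/TRAIL dKO livers, 6.04, 5.98 and 5.93 in Nemo KO livers, and 5.26, 5.20 and 4.95 in WT livers. The Nemo/TNFR1 dKO livers were the highest and the most spread, and they overlapped no other group. Abcb1b rose by 2.17 ± 0.28 in Nemo/TNFR1 dKO against WT (limma adjusted p 0.0018), a 4.51-fold change. Its differences from WT were 0.77 ± 0.32 in Nemo/TRAIL dKO (adjusted p 0.197) and 0.84 ± 0.28 in Nemo KO (0.0998), which did not pass.

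Set directly against Nemo KO, Abcb1b in Nemo/TNFR1 dKO differed by 1.33 ± 0.28, with a 95% interval of 0.70 to 1.96, an unadjusted limma p of 0.000939 and an adjusted p of 0.371. Against Nemo/TRAIL dKO the difference was 1.41 ± 0.32, with an unadjusted limma p of 0.00138 and an adjusted p of 0.599. Neither passed over all probe sets. Without Nemo/TNFR1 dKO replicate 1, the lowest liver of its group, both passed, with 1.69 (limma adjusted p 0.0406) and 1.77 (0.0488), and the differences from WT in Nemo/TRAIL dKO (0.0438) and Nemo KO (0.0166) passed too. The Abcb1b difference in Nemo KO against WT also passed without Nemo/TNFR1 dKO replicate 2 (0.0217) and in a fit of those 2 groups alone (0.00575). The Abcb1a and Abcb1b transcripts are near copies, and probes that take up RNA of both would blur their values, which was not tested. The mean signal of Abcb1b lies below the median of all probe sets.

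Abcb11, the bile salt export pump, averaged 11.78 ± 0.25 in Nemo/TNFR1 dKO, 11.69 ± 0.02 in Nemo/TRAIL dKO, 11.71 ± 0.13 in Nemo KO and 12.15 ± 0.13 in WT (SD). Its differences from WT were -0.37 ± 0.12, -0.46 ± 0.14 and -0.44 ± 0.12 in the 3 genotypes in that order, with limma adjusted p of 0.106, 0.0817 and 0.058, and only Nemo/TNFR1 dKO overlapped WT. The call depends on the setting. Without Nemo/TNFR1 dKO replicate 1 Abcb11 passed in all 3 genotypes, with limma adjusted p of 0.0255 in Nemo/TNFR1 dKO (a difference of -0.50), 0.0371 in Nemo/TRAIL dKO and 0.0256 in Nemo KO. A signal filter at the median gave 0.0436 in Nemo/TRAIL dKO and 0.031 in Nemo KO. In Nemo KO it also passed without Nemo/TNFR1 dKO replicate 2 (0.0355) and with array weights (0.0388), median centring (0.0491) and a variance trend (0.0497).

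Abcc2 (Mrp2), which secretes glucuronide and glutathione conjugates, had log2 signals of 12.18, 12.24 and 12.14 in Nemo/TNFR1 dKO livers, 11.88 and 12.12 in Nemo/TRAIL dKO livers, 12.06, 12.13 and 12.15 in Nemo KO livers, and 12.12, 12.06 and 12.08 in WT livers. Every Nemo-deficient group but Nemo/TNFR1 dKO overlapped WT. The difference in Nemo KO was 0.02 with a 95% interval of -0.14 to 0.19, the difference in Nemo/TRAIL dKO was -0.09 (-0.27 to 0.09) and that in Nemo/TNFR1 dKO was 0.10 (-0.07 to 0.26). Abcg2 (Bcrp), an exporter of drugs and porphyrins, averaged 8.89 ± 0.10, 8.94 ± 0.08, 9.05 ± 0.05 and 8.91 ± 0.26 in the same group order, and its difference in Nemo KO was 0.14 (-0.12 to 0.41). These intervals exclude changes as large as those of Abcb1a and Abcb4.

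**Figure D2:**
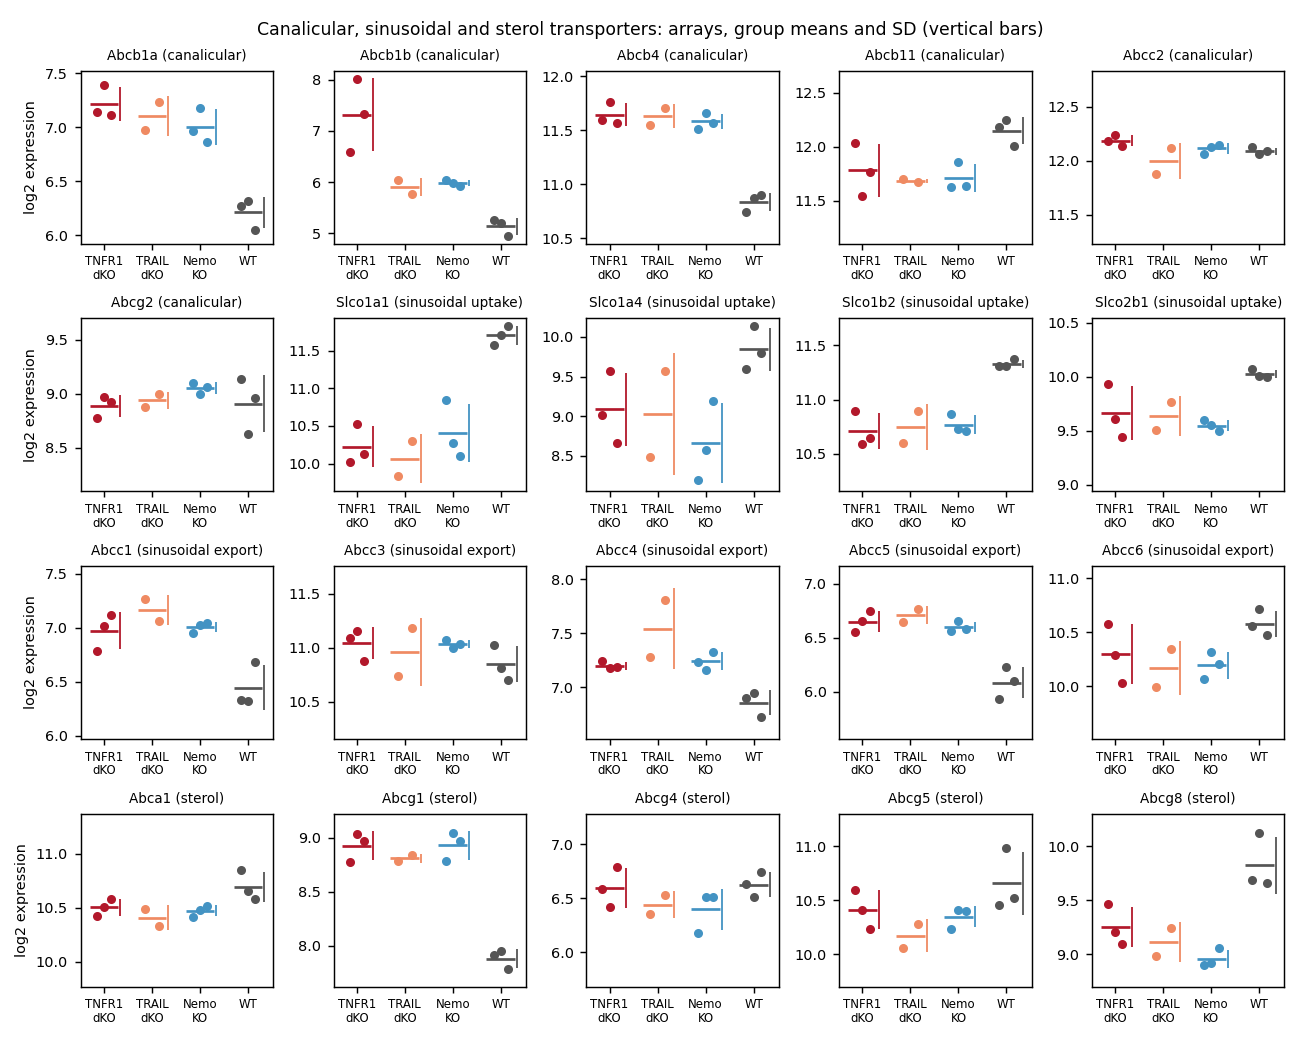
Log2 signal on each array (points), group mean (horizontal lines) and SD (vertical bars) for the canalicular, sinusoidal and sterol transporters, each panel with its own axis and Nemo/TNFR1 dKO, Nemo/TRAIL dKO, Nemo KO and WT from left to right in each panel. Slco1a1 and Slco1b2 lie below all WT livers and Abcb4, Abcb1a and Abcg1 above them in all 8 Nemo-deficient livers.

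The exporters of the sinusoidal side moved upward where they were called. Of 5 ABCC exporters, 2 rose in Nemo/TNFR1 dKO, 3 in Nemo/TRAIL dKO and 2 in Nemo KO, and none fell. These are 40%, 60% and 40% of a short list, beside 12.1%, 10.2% and 12.6% of all genes with 1 probe set each. Abcc5 (Mrp5), which exports cyclic nucleotides, had log2 signals of 6.55, 6.66 and 6.75 in Nemo/TNFR1 dKO livers, 6.65 and 6.77 in Nemo/TRAIL dKO livers, 6.57, 6.65 and 6.58 in Nemo KO livers, and 5.94, 6.23 and 6.10 in WT livers. No Nemo-deficient liver reached down to the WT range. Abcc5 rose by 0.56 ± 0.09 in Nemo/TNFR1 dKO (limma adjusted p 0.00395), 0.62 ± 0.10 in Nemo/TRAIL dKO (0.00542) and 0.51 ± 0.09 in Nemo KO (0.0063).

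Abcc1 (Mrp1), an exporter of glutathione conjugates and leukotriene C4 in many cell types, had log2 signals of 6.79, 7.01 and 7.12 in Nemo/TNFR1 dKO livers, 7.26 and 7.07 in Nemo/TRAIL dKO livers, 6.95, 7.02 and 7.04 in Nemo KO livers, and 6.33, 6.32 and 6.68 in WT livers. WT replicate 3 came closest to the knockout groups, without overlap. Abcc1 rose by 0.53 ± 0.12 in Nemo/TNFR1 dKO (limma adjusted p 0.0231), 0.72 ± 0.13 in Nemo/TRAIL dKO (0.0111) and 0.56 ± 0.12 in Nemo KO (0.0172). The Abcc1 call in Nemo KO was lost without its replicate 2 (0.0601) or 3 (0.0641) or WT replicate 1 (0.0595) or 2 (0.0617). That in Nemo/TNFR1 dKO was lost without its replicate 2 (0.0777) or 3 (0.0868) or WT replicate 1 (0.0733) or 2 (0.0812), and that in Nemo/TRAIL dKO without its replicate 1 (0.108).

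Abcc4 (Mrp4), which exports bile acids together with glutathione, had log2 signals of 7.24, 7.18 and 7.18 in Nemo/TNFR1 dKO livers, 7.28 and 7.81 in Nemo/TRAIL dKO livers, 7.24, 7.16 and 7.33 in Nemo KO livers, and 6.90, 6.95 and 6.73 in WT livers. All 8 Nemo-deficient livers were above WT, and 1 Nemo/TRAIL dKO liver was far above the other. With all arrays the difference was 0.34 ± 0.12 in Nemo/TNFR1 dKO (limma adjusted p 0.13), 0.68 ± 0.14 in Nemo/TRAIL dKO (0.0164) and 0.38 ± 0.12 in Nemo KO (0.089), so that it passed in Nemo/TRAIL dKO alone. Without Nemo/TRAIL dKO replicate 2 the difference in that genotype was 0.42 and did not pass (0.0794). It did not pass in a fit of Nemo/TRAIL dKO and WT alone either (0.127), while Nemo KO passed when fitted with WT alone (0.0493). With 1 of the Nemo/TRAIL dKO arrays left out, whichever it was, the differences in Nemo/TNFR1 dKO (0.0327) and Nemo KO (0.0201) passed.

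Abcc3 (Mrp3), an exporter of glucuronides and bile acids, differed from WT by 0.19 ± 0.13 in Nemo/TNFR1 dKO, 0.11 ± 0.14 in Nemo/TRAIL dKO and 0.18 ± 0.13 in Nemo KO, the last with a 95% interval of -0.10 to 0.47. Abcc6, the hepatic ABCC protein that in humans is mutated in pseudoxanthoma elasticum, differed by -0.28 ± 0.15, -0.41 ± 0.16 and -0.38 ± 0.15 in the same order. Neither passed, with limma adjusted p from 0.144 to 0.73.

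Of the sterol transporters, 1 of 5 rose and 1 fell in each comparison with WT. That is 40% of a short list each time. Of all genes with 1 probe set each, 12.1% were called in Nemo/TNFR1 dKO, 10.2% in Nemo/TRAIL dKO and 12.6% in Nemo KO. Abcg1, which passes cellular cholesterol to lipoproteins and is prominent in macrophages, had log2 signals of 8.78, 9.04 and 8.97 in Nemo/TNFR1 dKO livers, 8.78 and 8.84 in Nemo/TRAIL dKO livers, 8.78, 9.04 and 8.97 in Nemo KO livers, and 7.91, 7.96 and 7.78 in WT livers. The Nemo-deficient groups overlapped each other at a level well above WT. Nemo KO replicate 1 and Nemo/TRAIL dKO replicate 1 hold exactly the same deposited value. Abcg1 rose by 1.04 ± 0.09 in Nemo/TNFR1 dKO (limma adjusted p 0.000482), 0.93 ± 0.10 in Nemo/TRAIL dKO (0.00142) and 1.05 ± 0.09 in Nemo KO (0.000437). Of 7 macrophage markers, 5, 4 and 6 rose in these comparisons, and their mean level above the WT mean was 1.05 to 1.23, 1.10 to 1.11 and 0.93 to 1.30 in the arrays of the 3 genotypes in that order, against -0.07 to 0.05 in WT. The markers did not rise evenly. In the same order the median difference from WT over the 7 was 0.63, 0.55 and 0.71, and the largest was 3.86, 3.74 and 3.38. The mean of the markers thus lies above their median. The part of macrophages in the Abcg1 signal was not tested.

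Abca1, which loads cholesterol onto apolipoprotein A-I, lay below WT on every Nemo-deficient array. The separation was slight, since Nemo/TNFR1 dKO replicate 3 (10.580) almost met WT replicate 3 (10.582). Abca1 did not pass, with differences of -0.19 ± 0.09 in Nemo/TNFR1 dKO, -0.29 ± 0.10 in Nemo/TRAIL dKO and -0.22 ± 0.09 in Nemo KO (limma adjusted p 0.217, 0.113 and 0.145). Abcg4, a sterol transporter known mainly from brain, differed by -0.03, -0.18 and -0.23, with adjusted p from 0.289 to 0.918.

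Abcg5 and Abcg8 form the obligate dimer that secretes cholesterol and plant sterols into bile, and they lie head to head on chromosome 17. In the RefSeq table the window of Abcg8 that faces Abcg5 shares 209 bases with that of Abcg5. It is shown because the partners share it, as chr17:84682871-84683170, plus strand of GRCm38.p6, with the 2 matches to CCAAT in capitals.
Abcg8: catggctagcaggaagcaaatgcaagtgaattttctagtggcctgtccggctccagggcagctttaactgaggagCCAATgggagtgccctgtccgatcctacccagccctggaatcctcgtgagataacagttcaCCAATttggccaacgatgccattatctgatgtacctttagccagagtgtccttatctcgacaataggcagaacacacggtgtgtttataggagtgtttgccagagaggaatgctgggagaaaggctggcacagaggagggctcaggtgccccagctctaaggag
Abcg8 had log2 signals of 9.46, 9.20 and 9.09 in Nemo/TNFR1 dKO livers, 8.98 and 9.24 in Nemo/TRAIL dKO livers, 8.90, 8.92 and 9.05 in Nemo KO livers, and 9.68, 10.13 and 9.66 in WT livers. All Nemo-deficient livers lay below WT. Abcg8 fell by 0.57 ± 0.14 in Nemo/TNFR1 dKO (limma adjusted p 0.0372), by 0.71 ± 0.16 in Nemo/TRAIL dKO (0.0266) and by 0.86 ± 0.14 in Nemo KO (0.00565) on the log2 scale.

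Abcg5 had log2 signals of 10.60, 10.41 and 10.24 in Nemo/TNFR1 dKO livers, 10.06 and 10.28 in Nemo/TRAIL dKO livers, 10.24, 10.41 and 10.40 in Nemo KO livers, and 10.46, 10.99 and 10.53 in WT livers. Only Nemo/TNFR1 dKO overlapped WT. The differences of -0.24 ± 0.15, -0.48 ± 0.16 and -0.31 ± 0.15 in Nemo/TNFR1 dKO, Nemo/TRAIL dKO and Nemo KO did not pass, with limma adjusted p of 0.375, 0.119 and 0.232. Whether the partners differ in their response was not tested. The Abcg8 call in Nemo/TNFR1 dKO was kept in 4 of 11 fits with an array left out. It was lost without Nemo/TNFR1 dKO replicate 2 or 3, any 1 of the Nemo KO arrays or WT replicate 1 or 2, with adjusted p up to 0.129. The call in Nemo/TRAIL dKO was lost without either of its own arrays, with adjusted p up to 0.201, or without WT replicate 2 (0.0509), and the call in Nemo KO was kept in all 11.

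**Figure D3:**
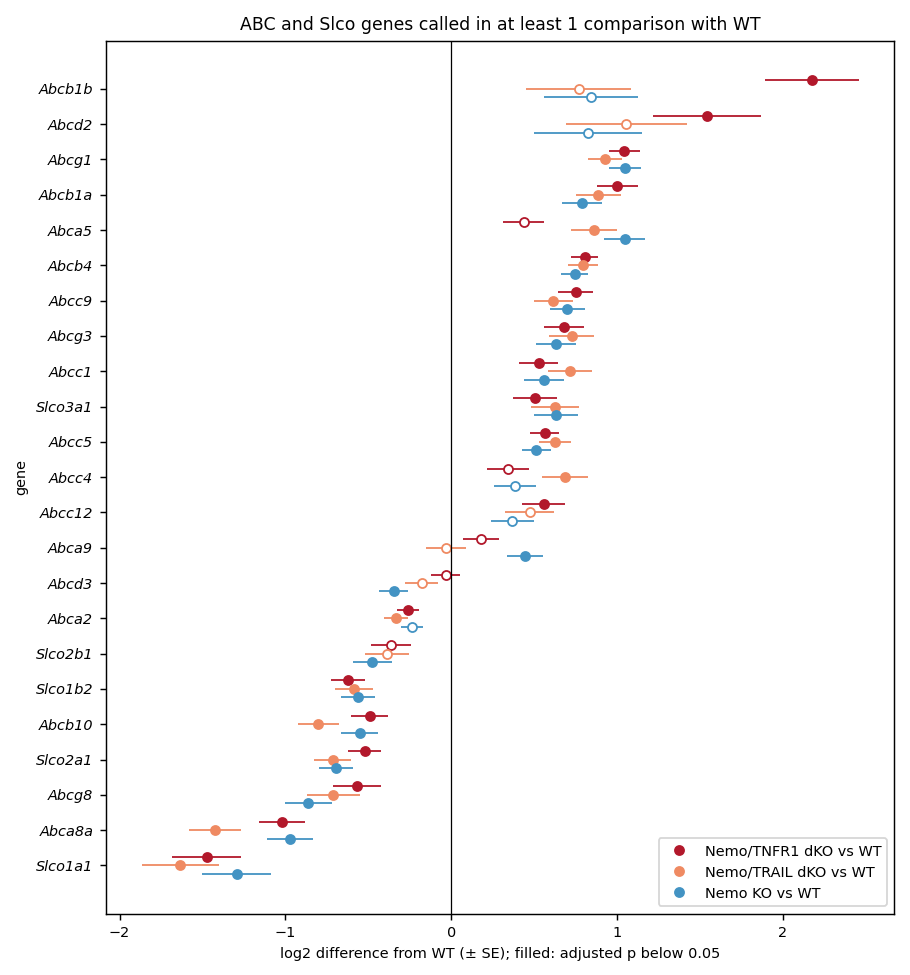
Log2 difference from WT with its standard error (points and lines) for the 23 genes called in at least 1 comparison with WT, in Nemo/TNFR1 dKO, Nemo/TRAIL dKO and Nemo KO, with filled points for an adjusted p below 0.05. Abcb1b and Abcd2 lie farthest to the right in Nemo/TNFR1 dKO, and Slco1a1 lies farthest to the left in all 3 genotypes.

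The ABCA lipid transporters held called genes in both directions. Of 15 genes, 2 fell in Nemo/TNFR1 dKO, 1 rose and 2 fell in Nemo/TRAIL dKO, and 2 rose and 1 fell in Nemo KO. These are 13.3%, 20% and 20% of the 15, beside 12.1%, 10.2% and 12.6% of all genes with 1 probe set each. In Nemo/TNFR1 dKO the share thus lies near that of any genes. Abca5, a protein of lysosomes and late endosomes, had log2 signals of 7.17, 7.62 and 7.58 in Nemo/TNFR1 dKO livers, 7.93 and 7.83 in Nemo/TRAIL dKO livers, 7.94, 8.07 and 8.18 in Nemo KO livers, and 7.14, 6.96 and 6.95 in WT livers. Nemo/TNFR1 dKO stood between WT and the other 2 Nemo-deficient groups and overlapped none of them. Abca5 rose by 0.86 ± 0.14 in Nemo/TRAIL dKO (limma adjusted p 0.00606) and 1.05 ± 0.12 in Nemo KO (0.00116), and differed by 0.44 ± 0.12 in Nemo/TNFR1 dKO (0.0587). That last difference passed without Nemo/TNFR1 dKO replicate 1 (0.58, adjusted p 0.00643), and the call in Nemo/TRAIL dKO was lost without its replicate 1 (0.0636). Compared directly with Nemo KO, Abca5 in Nemo/TNFR1 dKO differed by -0.61 ± 0.12 with an unadjusted limma p of 0.000704, and the adjusted p of 0.34 did not pass.

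Abca8a, of the same cluster of ABCA6-like genes, had log2 signals of 9.08, 8.86 and 9.06 in Nemo/TNFR1 dKO livers, 8.47 and 8.72 in Nemo/TRAIL dKO livers, 9.33, 8.91 and 8.91 in Nemo KO livers, and 9.91, 9.93 and 10.22 in WT livers. Every Nemo-deficient liver was below WT, and the Nemo/TRAIL dKO livers were the lowest. Abca8a fell by 1.02 ± 0.14 in Nemo/TNFR1 dKO (limma adjusted p 0.00223), by 1.42 ± 0.15 in Nemo/TRAIL dKO (0.00122) and by 0.97 ± 0.14 in Nemo KO (0.00268).

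Abca8b, Abca8a, Abca9, Abca6 and Abca5 follow each other on chromosome 11 with no coding gene between them, and they did not move together. In Nemo KO Abca5 and Abca9 rose, Abca8a fell, and the difference of Abca8b was 0.17 ± 0.14 (limma adjusted p 0.482). Abca6 averaged 10.83 in Nemo/TNFR1 dKO, 10.74 in Nemo/TRAIL dKO, 10.67 in Nemo KO and 10.76 in WT. Abca9 rose by 0.44 ± 0.11 in Nemo KO (0.0315), a call lost without Nemo KO replicate 1 (0.0867) or 3 (0.114) or WT replicate 1 (0.0898) or 3 (0.0728), and differed by 0.18 ± 0.11 in Nemo/TNFR1 dKO and -0.03 ± 0.12 in Nemo/TRAIL dKO. Probes of these near copies may take up each other's RNA, which was not tested.

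Abca2, a lysosomal protein known best from oligodendrocytes, averaged 9.18 ± 0.06 in Nemo/TNFR1 dKO, 9.11 ± 0.03 in Nemo/TRAIL dKO, 9.21 ± 0.07 in Nemo KO and 9.44 ± 0.07 in WT. It fell by 0.26 ± 0.07 in Nemo/TNFR1 dKO (limma adjusted p 0.0403) and by 0.33 ± 0.07 in Nemo/TRAIL dKO (0.0254), and its difference in Nemo KO was -0.23 ± 0.07 (0.0586), which passed with the signal filter (0.0321), quantile normalization (0.0359), array weights (0.0393) and a variance trend (0.0456). The call in Nemo/TNFR1 dKO was kept in 3 of 11 fits with an array left out, those without Nemo KO replicate 1, Nemo/TNFR1 dKO replicate 1 or WT replicate 3, with adjusted p up to 0.131 in the others. The call in Nemo/TRAIL dKO was kept in 7 and lost without either of its own arrays or WT replicate 1 or 2, with adjusted p up to 0.135. The other ABCA genes of the list were called in none of the comparisons with all arrays.

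**Figure D4:**
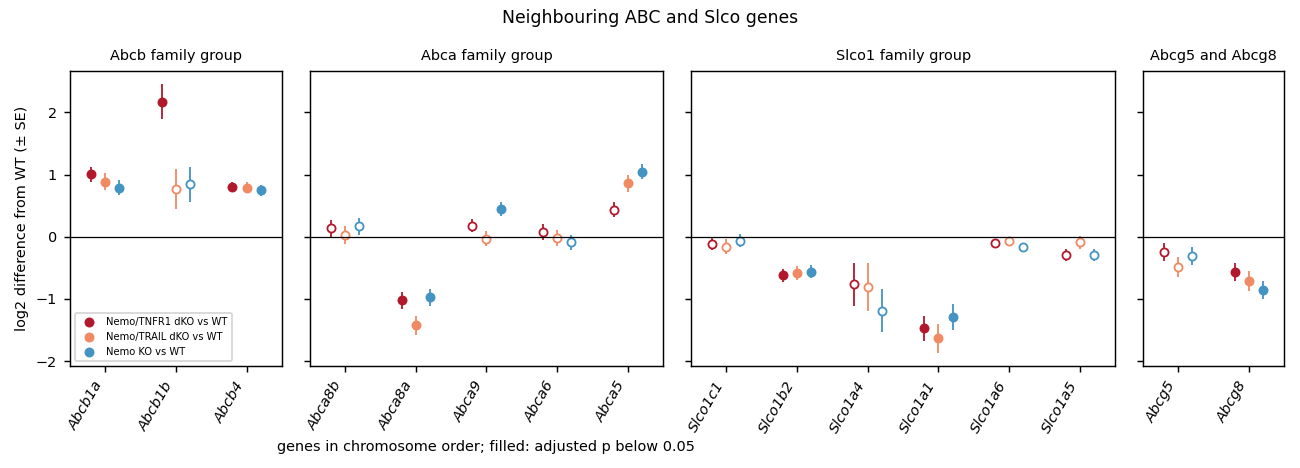
Log2 difference from WT with its standard error for members that are neighbours in the RefSeq gene order, one panel for each group of neighbours, with genes along the horizontal axis in chromosome order and filled points for an adjusted p below 0.05. In the Abca8b to Abca5 group the differences lie on both sides of 0, and in the Abcb1a to Abcb4 group they lie above it.

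Among proteins of organelles, 25% of the B family genes were called in each comparison with WT. Of the D family, 33.3% were called in Nemo/TNFR1 dKO, 0% in Nemo/TRAIL dKO and 33.3% in Nemo KO. Over all probe sets the shares were 9.18%, 7.55% and 9.29% in that order. For all genes with 1 probe set each they were 12.1%, 10.2% and 12.6%, and both lists are short. Of 4 mitochondrial and intracellular B family genes, Abcb10, an inner-membrane protein of mitochondria needed for haem synthesis in erythroid cells, was the only one called. It had log2 signals of 7.99, 7.96 and 7.94 in Nemo/TNFR1 dKO livers, 7.70 and 7.61 in Nemo/TRAIL dKO livers, 7.95, 7.80 and 7.96 in Nemo KO livers, and 8.34, 8.74 and 8.29 in WT livers. All 8 Nemo-deficient livers lay below WT. Abcb10 fell by 0.49 ± 0.11 in Nemo/TNFR1 dKO (limma adjusted p 0.0234), by 0.80 ± 0.12 in Nemo/TRAIL dKO (0.00521) and by 0.55 ± 0.11 in Nemo KO (0.0136). The Abcb10 call in Nemo/TNFR1 dKO was lost without its replicate 2 (0.0726) or 3 (0.078), and that in Nemo KO without its replicate 2 (0.0575). Abcb9 was not called, but it passed as lower in Nemo KO with quantile normalization (limma adjusted p 0.0271), the signal filter (0.0342), median centring (0.0351) and array weights (0.0416). It also passed there without Nemo KO replicate 1 (0.0301).

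Of 3 D family genes, Abcd2, a peroxisomal importer of very-long-chain fatty acids, had log2 signals of 9.55, 9.34 and 8.88 in Nemo/TNFR1 dKO livers, 8.25 and 9.28 in Nemo/TRAIL dKO livers, 8.39, 8.59 and 8.64 in Nemo KO livers, and 7.70, 8.30 and 7.13 in WT livers. The WT livers themselves spread widely, and only Nemo/TRAIL dKO overlapped them. Abcd2 rose by 1.54 ± 0.33 in Nemo/TNFR1 dKO (limma adjusted p 0.0177) and differed by 1.06 ± 0.37 in Nemo/TRAIL dKO (0.126) and 0.83 ± 0.33 in Nemo KO (0.154). The call was lost without Nemo/TNFR1 dKO replicate 1 (0.0519) or 2 (0.0631) or WT replicate 1 (0.0502).

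Abcd3 (PMP70), the peroxisomal importer of branched-chain acids and bile acid precursors, averaged 11.37 ± 0.14 in Nemo/TNFR1 dKO, 11.22 ± 0.15 in Nemo/TRAIL dKO, 11.05 ± 0.05 in Nemo KO and 11.40 ± 0.07 in WT. It fell by 0.35 ± 0.09 in Nemo KO (limma adjusted p 0.0385), a call kept in 6 of 11 fits with an array left out and lost without any 1 of the Nemo KO arrays or WT replicate 1 or 2, with adjusted p up to 0.116. Its differences were -0.03 ± 0.09 in Nemo/TNFR1 dKO and -0.18 ± 0.10 in Nemo/TRAIL dKO. Abcd4 was not called, but it passed as lower in Nemo KO with quantile normalization (limma adjusted p 0.0289), the signal filter (0.0375) and array weights (0.0405). It also passed there without WT replicate 3 (0.045). The soluble ABCE and ABCF proteins, which act on ribosomes and translation, held no call among 4 genes. In limma, 2 had an unadjusted p below 0.05 in Nemo/TNFR1 dKO (beside 23% of all probe sets), 1 in Nemo/TRAIL dKO (21.2%) and 0 in Nemo KO (24.8%). Abcf2 had the largest difference of them in Nemo KO, -0.07 ± 0.07.

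Among the other members Abcc9 (SUR2), the regulatory subunit of a potassium channel of muscle and pericytes, had log2 signals of 9.56, 9.36 and 9.42 in Nemo/TNFR1 dKO livers, 9.16 and 9.46 in Nemo/TRAIL dKO livers, 9.37, 9.26 and 9.56 in Nemo KO livers, and 8.68, 8.79 and 8.62 in WT livers. The WT livers lay apart below all others. Abcc9 rose by 0.75 ± 0.11 in Nemo/TNFR1 dKO (limma adjusted p 0.00276), 0.62 ± 0.12 in Nemo/TRAIL dKO (0.0133) and 0.70 ± 0.11 in Nemo KO (0.00365), and the call in Nemo/TRAIL dKO was lost without its replicate 2 (0.105). Of 6 stellate cell markers, 4, 3 and 4 rose in the same comparisons. Their mean level above the WT mean was 0.67 to 0.91, 0.55 to 0.71 and 0.63 to 0.85 in the 3 genotypes in that order, against -0.23 to 0.16 in WT, and the part of those cells was not tested.

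Slco2a1, the prostaglandin transporter, which in liver is found in sinusoidal endothelium, had log2 signals of 10.99, 10.71 and 10.78 in Nemo/TNFR1 dKO livers, 10.68 and 10.59 in Nemo/TRAIL dKO livers, 10.78, 10.66 and 10.53 in Nemo KO livers, and 11.44, 11.20 and 11.42 in WT livers. All Nemo-deficient livers lay below the lowest WT liver. Slco2a1 fell by 0.52 ± 0.10 in Nemo/TNFR1 dKO (limma adjusted p 0.0116), by 0.72 ± 0.11 in Nemo/TRAIL dKO (0.00567) and by 0.69 ± 0.10 in Nemo KO (0.00296). Of 6 sinusoidal endothelial markers, 1 rose in Nemo/TNFR1 dKO, 2 rose and 1 fell in Nemo/TRAIL dKO, and limma called 0 in Nemo KO, where 2 had an unadjusted p below 0.05. The mean of those markers lay 0.17 to 0.19, 0.10 to 0.23 and 0.03 to 0.10 above the WT mean in the same order, against -0.01 to 0.01 in WT, and the part of those cells was not tested.

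Slco3a1, a widely expressed organic anion carrier, had log2 signals of 8.34, 8.60 and 8.84 in Nemo/TNFR1 dKO livers, 8.80 and 8.62 in Nemo/TRAIL dKO livers, 8.63, 8.78 and 8.74 in Nemo KO livers, and 8.03, 7.96 and 8.27 in WT livers. The groups did not overlap WT, though Nemo/TNFR1 dKO replicate 1 came close to WT replicate 3. Slco3a1 rose by 0.51 ± 0.13 in Nemo/TNFR1 dKO (limma adjusted p 0.0409), 0.63 ± 0.15 in Nemo/TRAIL dKO (0.0304) and 0.63 ± 0.13 in Nemo KO (0.0154). The call in Nemo/TNFR1 dKO was kept in 2 of 11 fits with an array left out, those without Nemo/TNFR1 dKO replicate 1 or WT replicate 3, with adjusted p up to 0.128 in the others. The call in Nemo/TRAIL dKO was lost without either of its own arrays or WT replicate 1 or 2 (up to 0.205), and that in Nemo KO without its replicate 2 or 3 or WT replicate 1 or 2 (up to 0.0605).

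Abcg3, a rodent relative of Abcg2, averaged 6.84 ± 0.21 in Nemo/TNFR1 dKO, 6.89 ± 0.20 in Nemo/TRAIL dKO, 6.79 ± 0.11 in Nemo KO and 6.16 ± 0.11 in WT. It rose by 0.68 ± 0.12 in Nemo/TNFR1 dKO (limma adjusted p 0.00787), 0.73 ± 0.14 in Nemo/TRAIL dKO (0.0115) and 0.63 ± 0.12 in Nemo KO (0.0113), and the call in Nemo/TRAIL dKO was lost without its replicate 2 (0.0923). Abcc12 (Mrp9) averaged 5.85 ± 0.17 in Nemo/TNFR1 dKO, 5.77 ± 0.04 in Nemo/TRAIL dKO, 5.67 ± 0.08 in Nemo KO and 5.30 ± 0.26 in WT, a low signal on this array. It rose by 0.56 ± 0.13 in Nemo/TNFR1 dKO (limma adjusted p 0.0275), lost without replicate 2 (0.0948) or 3 (0.0585) of that group or WT replicate 1 (0.0601) or 3 (0.0559), and differed by 0.47 ± 0.15 in Nemo/TRAIL dKO (0.0891) and 0.37 ± 0.13 in Nemo KO (0.117). Of the 19 members with a mean signal at or below the median of all probe sets, only Abcb1b and Abcc12 were called with all arrays in any comparison with WT.

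On chromosome 6 the genes Slco1c1, Slco1b2, Slco1a4, Slco1a1, Slco1a6 and Slco1a5 follow each other with at most 1 coding gene between neighbours. Slco1a1 and Slco1b2 fell in all 3 comparisons. With all arrays Slco1c1 (a thyroxine carrier known from the blood-brain barrier), Slco1a5 and Slco1a6 had low signals and passed in none. Without WT replicate 3, Slco1a5 passed with a difference of -0.39 in Nemo/TNFR1 dKO (limma adjusted p 0.0386) and -0.37 in Nemo KO (0.0429). Tnfrsf1a lies on the same chromosome, 171 coding genes away from Slco1c1. None of the 6 genes was called in Nemo/TNFR1 dKO against Nemo KO.

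The added knockouts gave no call among the 63 genes. In Nemo/TRAIL dKO against Nemo KO limma called 0 genes, beside 0.00562% of all probe sets, and 2 genes, beside 4.04% of all probe sets, had an unadjusted p below 0.05 (Abca8a and Abca9). In Nemo/TNFR1 dKO against Nemo KO it called 0, beside 0.0337%, and 5 genes, beside 6.86%, had an unadjusted p below 0.05 (Abcb1b, Abca5, Abca9, Abcc10 and Abcd3). In Nemo/TNFR1 dKO against Nemo/TRAIL dKO it called 0, beside 0.0478%, and 6 genes, beside 5.03%, had an unadjusted p below 0.05 (Abcb1b, Abcc2, Abcc4, Abca5, Abca8a and Abcb10). A call against WT in 1 genotype and not in another is thus not shown to be a difference between them.

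Of 16 partner genes of these transporters, 14 were measured. They are other bile acid and organic ion carriers of the hepatocyte, the accessory proteins that place pumps in the membrane and the flippases beside them. In Nemo/TNFR1 dKO against WT 1 fell, in Nemo/TRAIL dKO 1 rose and 1 fell, and in Nemo KO 2 fell. These are 7.14%, 14.3% and 14.3% of the 14, beside 9.18%, 7.55% and 9.29% of all probe sets. Of all genes with 1 probe set each, 12.1%, 10.2% and 12.6% were called, so the partner shares lie near those of any genes. Slc10a1 (Ntcp), the sodium-dependent bile acid carrier of the sinusoidal membrane, fell by 0.52 ± 0.13 in Nemo/TRAIL dKO (limma adjusted p 0.0391) and by 0.48 ± 0.11 in Nemo KO (0.0303), and its difference in Nemo/TNFR1 dKO was -0.37 ± 0.11 (0.0819). The other called partners were Slc22a7 (Oat2), Rab11a, which recycles pumps to the canaliculus, and Tmem30a, a flippase subunit. Rab11a rose by 0.33 ± 0.08 in Nemo/TRAIL dKO, and Tmem30a fell by 0.28 ± 0.07 in Nemo/TNFR1 dKO. Slc22a7 differed by -0.37 ± 0.10 in Nemo KO, where it averaged 7.86. Its means of 8.47 in Nemo/TNFR1 dKO and 8.41 in Nemo/TRAIL dKO lay above the 8.23 of WT, and neither was called against WT.

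Of 14 regulators of these genes, 12 were measured, and 2 rose and 2 fell in each comparison with WT. That is 33.3% of the 12, beside 9.18%, 7.55% and 9.29% of all probe sets in Nemo/TNFR1 dKO, Nemo/TRAIL dKO and Nemo KO. For all genes with 1 probe set each the shares were 12.1%, 10.2% and 12.6%, and the list is short. Nfe2l2 (Nrf2), a factor that acts on oxidative stress genes and several Abcc pumps, rose by 0.96 ± 0.07 in Nemo/TNFR1 dKO (limma adjusted p 0.000121), 0.82 ± 0.07 in Nemo/TRAIL dKO (0.00069) and 0.94 ± 0.07 in Nemo KO (0.000263). Nr0b2 (Shp), the repressor that bile acids induce through Fxr, fell by 1.31 ± 0.16 in Nemo/TNFR1 dKO (limma adjusted p 0.00136) and by 1.12 ± 0.16 in Nemo KO (0.00269), and its difference in Nemo/TRAIL dKO was -0.66 ± 0.18 (0.0568). Ahr, the aryl hydrocarbon receptor, rose in all 3, and Nr5a2 (Lrh-1), a nuclear receptor of bile acid synthesis, fell in all 3. Stat5b, through which growth hormone acts, fell by 0.38 ± 0.09 in Nemo/TRAIL dKO (0.0414). Nr1h4 (Fxr), the bile acid receptor, did not pass, with a difference of -0.17 ± 0.14 in Nemo KO (0.505), and Nr1h3 (Lxrα), the oxysterol receptor, differed by -0.02 there. Both partner and regulator differences are RNA levels and were not linked to any transporter by a test.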

How the data were processed

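Each of 11 mouse liver RNA samples was hybridised to 1 array. The deposited table holds log2 expression values, made by the authors with RMA per the submitters' processing notes. The version and genome build are not given there, and no further normalization was applied. Of 35556 probe sets, the 21789 with 1 gene symbol in the platform annotation named genes. The log2 value of 22 members, as deposited, is repeated exactly on 2 to 6 arrays, as in 39% of all probe sets. With R 4.3.3 and limma 3.58.1, all arrays and probe sets entered a linear model with a mean for each labelled genotype and limma's default moderation of variances. Two-sided p-values were adjusted by Benjamini-Hochberg within each of 6 comparisons, and the script was tested on simulated data. The number of arrays limits the precision, with a median standard error of 0.114 where Nemo/TRAIL dKO is involved and 0.102 otherwise. Members and all lists were chosen with earlier results of these data known, so their counts are descriptions. Every canalicular, sinusoidal and sterol member was named, and of the other lists each called member or, with none called, the one with the largest difference in Nemo KO. Abca6, Abca8b, Abcb9, Abcd4, Slco1c1, Slco1a5, Slco1a6 and Abcc10 were named after their values were seen. Gene order, and windows of 250 bases before to 50 after a start, came from RefSeq for GRCm38.p6, where all 63 members matched and 51 had a window. Alternatives were a variance trend with robust moderation, quantile normalization, median centring, a signal filter at the median, the compared groups alone, weighted arrays, a replicate block, the mean of a gene's probe sets, an adjusted p below 0.01, and each array left out.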

Additional observations from a re-analysis of the deposited data

How the results depend on the processing

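No difference of a member changed sign with a call under any alternative. Fitting only the groups compared gave 8 called members in Nemo/TRAIL dKO against WT, where all arrays together gave 17, and 12 in Nemo/TNFR1 dKO, where they gave 18. In Nemo/TRAIL dKO it lost Abca2, Abcb10, Abcc1, Abcc4, Abcc5, Abcc9, Abcg8, Slco1b2 and Slco3a1 (limma adjusted p 0.057 to 0.127). In Nemo/TNFR1 dKO it lost Abca2, Abcb10, Abcc1, Abcc12, Abcg8 and Slco3a1 (0.0885 to 0.124), and in Nemo KO Abca9 (0.0849) and Abcb10 (0.0589). An adjusted p below 0.01 left 10 in Nemo/TNFR1 dKO, 9 in Nemo/TRAIL dKO and 11 in Nemo KO against WT. The other settings with all arrays kept each of these total counts within 1.5 times. With an array left out, the counts ranged from 11 to 20 in Nemo/TNFR1 dKO against WT (11 without Nemo/TNFR1 dKO replicate 2, and 12 without its replicate 3 or without WT replicate 1), from 11 to 20 in Nemo/TRAIL dKO (11 without either of its own arrays) and from 13 to 20 in Nemo KO. They were 0 to 1 in Nemo/TNFR1 dKO against Nemo KO and against Nemo/TRAIL dKO, the 1 being Abcb1b without Nemo/TNFR1 dKO replicate 1, and 0 in Nemo/TRAIL dKO against Nemo KO. Of the calls against WT, 11 of 18, 8 of 17 and 12 of 18 in Nemo/TNFR1 dKO, Nemo/TRAIL dKO and Nemo KO were kept in all 11 such fits. The split of the calls in Nemo KO, 10 higher and 8 lower, became 9 and 11 after quantile normalization, 10 and 13 with array weights and 10 and 14 with the signal filter. Deviations from the group means had correlations of -0.117 to 0.0435 between same-numbered arrays of different groups and -0.164 to 0.164 between other arrays. With so few arrays the deviations within a group depend on each other, so this check cannot exclude a pairing. With the replicate block 15, 16 and 17 members were called in Nemo/TNFR1 dKO, Nemo/TRAIL dKO and Nemo KO against WT, and 0 in the other comparisons, with 6 calls lost and 1 gained (Slco1a4 in Nemo KO, adjusted p 0.0439 by limma). The cause of these changes was not tested.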
